A study of Mus musculus with 6 samples.

Results

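The genes described here are those of the proteasome, its activators, its inhibitor and its assembly chaperones, including the immunoproteasome subunits Psmb8, Psmb9 and Psmb10. They are the 50 protein-coding mouse genes, of 54232 gene IDs counted (21983 protein-coding), whose GENCODE M21 symbol begins with Psma, Psmb, Psmc, Psmd, Psme, Psmf or Psmg followed by a digit. The symbols bring in 1 gene that encodes no part of the proteasome, Psmc3ip, a factor of meiotic recombination. It is included in counts over all the genes unless stated otherwise. RNA was sequenced from fetal liver cells of C57/B6 mice at E13.5 (embryonic day), purified as cells without Ter-119, which marks maturing red cells at their surface, and labelled as progenitor cells. The 30 h group (3 libraries) held such cells kept in medium with erythropoietin (EPO), the hormone of red cell production, with the solvent DMSO added at 24 h and harvest at 30 h. The day 0 group (3 libraries) held the purified cells with no treatment. No genetic modification is stated for either group, and libraries of cells given the caspase inhibitor Z-VAD-FMK were not analysed here. Time in culture, EPO and DMSO all differed between the groups and cannot be told apart. The comparison of 30 h with day 0 asks which proteasome transcripts changed over this culture.

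The proteasome is the protease that degrades proteins tagged with ubiquitin. Its core is a barrel of alpha and beta rings whose catalytic sites lie in the beta subunits Psmb6 (caspase-like), Psmb7 (trypsin-like) and Psmb5 (chymotrypsin-like). The regulatory particle on its end has a base, with a ring of ATPases that unfold substrates, and a lid, which holds the enzyme that removes ubiquitin. In cells exposed to interferon gamma and in many blood cells, Psmb9, Psmb10 and Psmb8 replace these catalytic subunits and make the immunoproteasome, which supplies peptides for class I antigen presentation. Red cell precursors remodel their protein content as they mature, and ubiquitin-dependent degradation is part of that process.

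Library totals were 19241780 to 24154481 counts at 30 h and 27754279 to 29949173 counts at day 0, and 16150 genes had enough counts to be tested. Cell type markers differed between the groups. All 8 erythroid markers were higher at 30 h (7 with scaling by library totals only), with a summed level of 42960 to 53480 CPM (counts relative to the scaled library total) at 30 h and 1238 to 1339 CPM at day 0. Hbb-bt alone made up 24984 to 38119 CPM of the sum at 30 h. The rises ran from 1.77-fold (Klf1) to 141-fold (Hbb-bt). Among all genes tested, 34.4% were higher and 40.1% lower (22.3% and 54.4% with library totals only). The 7 hepatoblast markers summed to 793 to 2290 CPM at 30 h and 13304 to 15065 CPM at day 0 (6 lower), so RNA typical of liver cells was present in libraries labelled as progenitor cells. In bulk RNA, fewer cells of a type and less RNA per cell cannot be told apart. Replicate 3 of the 30 h group stood apart from the other 30 h libraries, with a chi-square of counts, per degree of freedom, of 88.8 and 49.2 against replicates 1 and 2. The value was 11.1 between those 2 and 4.35 to 6.07 between day 0 libraries. The labels do not say whether libraries of a group came from separate animals or cultures, so each p-value reflects the spread between these libraries, which may be technical.

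The promoters of 5 genes are shown, chosen with their RNA changes known. They include Psmb10, the immunoproteasome gene that was lower at 30 h, and the constitutive catalytic genes Psmb6 and Psmb5. The others are Psmc6 and Psmd10, the base gene and the chaperone gene with the largest rises of their classes. The sequences are from RefSeq (GRCm38.p6), 5′ to 3′ on the gene's strand, and each is the longest stretch of the 250 bases before the RefSeq start that lies outside every GENCODE M21 exon. The motifs searched on both strands were TGACNNNGC, the core of the antioxidant response element bound by the factors NRF1 and NRF2, the core of the interferon-stimulated response element, and CCAAT. No match of one motif overlaps a match of another in these stretches. Capitals mark a match. The stretches are chr8:105938445-105938642 (minus strand) for Psmb10, chr11:70525107-70525356 (plus) for Psmb6, chr14:54618023-54618245 (minus) for Psmb5, chr14:45329574-45329787 (plus) for Psmc6 and chrX:140956729-140956906 (minus) for Psmd10.
Psmb10: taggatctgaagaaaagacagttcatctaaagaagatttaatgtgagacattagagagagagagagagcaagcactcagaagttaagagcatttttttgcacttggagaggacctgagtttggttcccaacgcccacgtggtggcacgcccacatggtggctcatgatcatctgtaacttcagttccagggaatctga
Psmb6: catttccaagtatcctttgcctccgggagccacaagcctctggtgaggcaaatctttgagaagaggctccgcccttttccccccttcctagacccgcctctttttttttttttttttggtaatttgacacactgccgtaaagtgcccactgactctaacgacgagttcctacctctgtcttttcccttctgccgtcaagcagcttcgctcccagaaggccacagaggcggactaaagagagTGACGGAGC
Psmb5: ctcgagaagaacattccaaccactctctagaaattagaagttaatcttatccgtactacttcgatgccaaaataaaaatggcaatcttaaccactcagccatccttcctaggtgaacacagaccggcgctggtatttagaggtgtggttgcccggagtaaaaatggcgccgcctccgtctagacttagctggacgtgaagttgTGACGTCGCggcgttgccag
Psmc6: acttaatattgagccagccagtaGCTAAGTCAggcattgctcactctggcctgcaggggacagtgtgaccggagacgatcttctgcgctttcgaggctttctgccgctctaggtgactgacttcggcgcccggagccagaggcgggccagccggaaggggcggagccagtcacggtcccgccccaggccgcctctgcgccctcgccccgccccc
Psmd10: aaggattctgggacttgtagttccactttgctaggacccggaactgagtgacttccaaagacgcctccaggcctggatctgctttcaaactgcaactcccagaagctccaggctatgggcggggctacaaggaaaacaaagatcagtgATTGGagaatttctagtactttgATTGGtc
Psmb6, Psmb5 and Psmc6 each hold 1 match to TGACNNNGC, that of Psmc6 on the opposite strand. Psmd10 holds 2 matches to CCAAT on the opposite strand, and the stretch of Psmb10 holds none of the 3 motifs. Over the full 250 bases, TGACNNNGC was found in 5 of the 42 proteasome genes with an entry in the table (11.9%; Psmb5, Psmb6, Psmc6, Psmd9 and Psmd12) and in 11.5% of all 27025 genes. The interferon-stimulated element core was found in 3 (7.14%; Psmb3, Psmd4 and Psmd9) and in 3.46% of all genes, and CCAAT in 15 (35.7%) and in 37.5% of all genes. These are letter matches only, and their part in the RNA changes was not tested.

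Most proteasome genes were higher at 30 h than at day 0. Of the 49 tested, 35 (71.4%) were higher, 4 were lower and 10 did not pass the threshold (edgeR quasi-likelihood test with TMM scaling, adjusted p below 0.05 over all genes tested). Without Psmc3ip, 34 of 48 (70.8%) were higher. The background was 34.4% of all 16150 genes higher and 40.1% lower. Among the 6344 genes with a mean of at least 30 CPM, a range chosen after seeing the data, 44.3% were higher and 28.9% lower. The 4 genes that fell were the immunoproteasome gene Psmb10, the lid gene Psmd3, the chaperone gene Psmg1 and the germline alpha subunit gene Psma8. The values of the groups were apart for 40 genes, with the 30 h libraries all higher for 36 and all lower for 4, against 36.3% and 43.4% of all genes. Psmb11, the thymus-specific catalytic subunit, had 1 count in 1 day 0 library and none in the others, and was not tested. Psmc3ip stood at 38.7, 43.1 and 54.0 CPM at 30 h and 29.4, 25.2 and 28.4 CPM at day 0, with no overlap (1.64-fold higher, log2 0.71 ± 0.14 SE, adjusted p = 0.00230; log2 0.22 and not called with library totals only).

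How the libraries were scaled set how many of these changes were called. With library totals only, 16 genes were higher and 12 lower, against 22.3% and 54.4% of all genes. With that scaling the median log2 change was 0.15 in the 49 proteasome genes, against 0.64 with TMM, and -0.58 in all genes, against -0.09 with TMM. The proteasome median was thus 0.73 above that of all genes under either scaling. A change of scaling shifts all log2 changes nearly alike, so the equal gap is no separate check. With TMM, the median of proteasome genes with a mean of at least 30 CPM was 0.45 above that of all genes in that range. Without any scaling factor, the 50 genes held 1.12%, 1.15% and 1.24% of counts in 30 h replicates 1, 2 and 3, against 1.10%, 1.05% and 1.11% in day 0 replicates 1, 2 and 3. These shares were 1.17% ± 0.0630 at 30 h and 1.09% ± 0.0286 at day 0 (SD, n = 3 each), and the groups did not overlap. The difference of 0.079 percentage points was 0.044 without 30 h replicate 3.

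**Figure D1:**
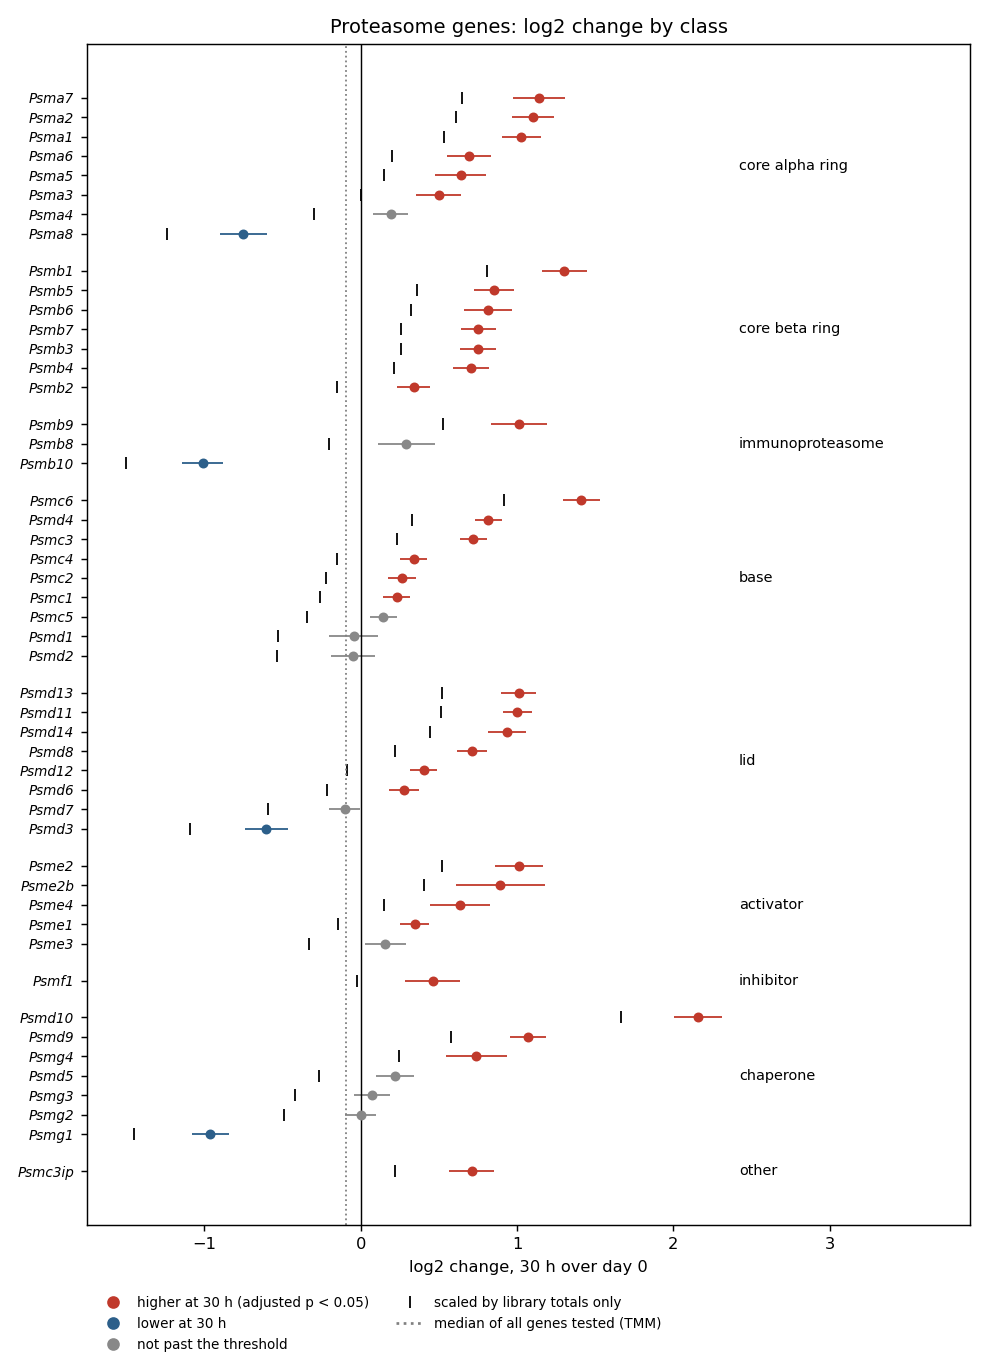
Log2 change of each of the 49 tested proteasome genes (30 h over day 0, TMM), by class and sorted within it; points are edgeR estimates with their SE, ticks are the same genes scaled by library totals only, and the dotted line is the median of all genes tested. Most points lie right of 0, the beta ring lies wholly there, and Psmd10 (2.16) and Psmb10 (-1.01) are the ends of the range.

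Nearly every gene of the core barrel was higher at 30 h. Of its 14 constitutive subunits, 13 (92.9%) passed the threshold and none was lower. In all 14 the 30 h libraries lay above every day 0 library. Their log2 changes ran between 0.19 and 1.30, with a median of 0.75. Over all genes tested, 34.4% were higher, and 36.3% had every 30 h library above every day 0 library. With library totals only, 6 of the 14 were higher and 1, Psma4, was lower, against 22.3% and 54.4% of all genes. The median of the 14 was then 0.26. In the beta ring all 7 genes rose. Psmb1, a structural beta subunit (chromosome 17, 15475021 to 15499751, mm10), had the largest rise: it stood at 658, 656 and 895 CPM in the 30 h libraries and 307, 275 and 314 CPM in the day 0 libraries, a 2.47-fold rise (log2 change 1.30 ± 0.14 SE, edgeR adjusted p = 9.05e-05). Every 30 h library lay well above every day 0 library, with replicate 3 the highest. Psmb2, another structural subunit, had the smallest, 1.27-fold (log2 0.34, adjusted p = 0.0185). It was -0.15 and not called with library totals only, and its adjusted p was 0.0578 to 0.0964 when any 1 day 0 library was left out.

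In the alpha ring, which gates entry to the barrel, 6 of the 7 constitutive genes rose. Psma7 rose most, with 727, 744 and 1079 CPM at 30 h and 398.5, 352 and 405 CPM at day 0 (2.21-fold, log2 1.14 ± 0.17 SE, edgeR adjusted p = 0.000396). The groups were far apart, with replicate 3 the highest of the 30 h libraries. Per kilobase of principal transcript, Psma7 was also the most abundant core transcript, at 930 ± 217 CPM at 30 h and 421 ± 31.7 at day 0 (SD, n = 3 each). That rank depends on the length used, as its principal transcript has 914 bases and its annotated exons together 3071 bases. Psma3 had the lowest level per kilobase of principal transcript among the constitutive core genes, 16.8 ± 3.28 at 30 h and 11.9 ± 0.215 at day 0. Psma4 did not pass the threshold (log2 0.19, adjusted p = 0.153), although its groups did not overlap. Psma8, an alpha subunit of meiotic germ cells, went against its ring. It stood at 3.06, 3.10 and 3.77 CPM at 30 h and 5.65, 5.62 and 5.37 CPM at day 0, 1.68-fold lower (log2 -0.75 ± 0.15 SE, edgeR adjusted p = 0.00214). The 30 h values rest on 174 counts over the 3 libraries, so they are known less precisely than those of the abundant subunits.

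The constitutive catalytic genes rose together. Psmb6 stood at 406, 442 and 602 CPM at 30 h and 280, 268 and 276 CPM at day 0 (1.76-fold, log2 0.81 ± 0.15 SE, edgeR adjusted p = 0.00152). Psmb7 stood at 313, 310 and 378 CPM at 30 h and 206, 190 and 198 CPM at day 0 (1.69-fold, log2 0.75 ± 0.11 SE, adjusted p = 0.000383). Psmb5 stood at 133, 136 and 176 CPM at 30 h and 83.0, 78.1 and 85.4 CPM at day 0 (1.81-fold, log2 0.85 ± 0.13 SE, adjusted p = 0.000498). In each of them every 30 h library exceeded every day 0 library. With library totals only, Psmb7 and Psmb5 were still called higher (log2 0.26 and 0.36), while Psmb6 was not (log2 0.32, adjusted p = 0.0688).

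The immunoproteasome genes did not move as a unit: Psmb9 rose, Psmb10 fell and Psmb8 did not pass the threshold. Psmb9, the caspase-like replacement (chromosome 17, 34181987 to 34187764, mm10), stood at 22.8, 30.8 and 36.8 CPM at 30 h and 16.3, 13.7 and 14.6 CPM at day 0, 2.02-fold higher (log2 1.02 ± 0.18 SE, edgeR adjusted p = 0.00112). Psmb10, the trypsin-like replacement (chromosome 8, 105935735 to 105938444), stood at 53.1, 55.9 and 72.1 CPM at 30 h and 122, 120 and 122 CPM at day 0, 2.01-fold lower (log2 -1.01 ± 0.13 SE, adjusted p = 0.000203). Psmb8, the chymotrypsin-like replacement (chromosome 17, 34197721 to 34201454), stood at 32.2, 40.4 and 53.6 CPM at 30 h and 36.9, 32.2 and 33.7 CPM at day 0 (log2 0.29 ± 0.18 SE, adjusted p = 0.172). The groups were apart for Psmb9 and Psmb10 and overlapped for Psmb8. Psmb8 lies 9956 bases from Psmb9 on the same chromosome, beside the peptide transporter gene Tap1.

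These calls differed in how far they depended on the processing. Psmb9 stayed higher and past the threshold in all 16 alternatives tried. Psmb10 stayed lower and past it in 15 of 16, but removing each library's trend with GC content reduced its log2 change to -0.33 (adjusted p = 0.103). Psmb8 became higher with that correction (log2 0.61, adjusted p = 0.0286) and when 30 h replicate 1 was left out (log2 0.52, adjusted p = 0.0155), and was -0.20 with library totals only. Together the 3 genes held 0.00908%, 0.0111% and 0.0133% of counts in the 30 h libraries and 0.0208%, 0.0196% and 0.0202% in the day 0 libraries. All 3 libraries at 30 h were below those at day 0. Most of the day 0 counts were of Psmb10 (4334, 4157 and 4021, against 1308, 1118 and 1111 for Psmb8 and 577, 476 and 483 for Psmb9). The sum thus does not show a fall of all 3 genes. Such shares use no scaling factor, and with library totals only 54.4% of all genes were lower. Per kilobase of principal transcript, Psmb10 had the highest mean level of the 3 genes in both groups.

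**Figure D2:**
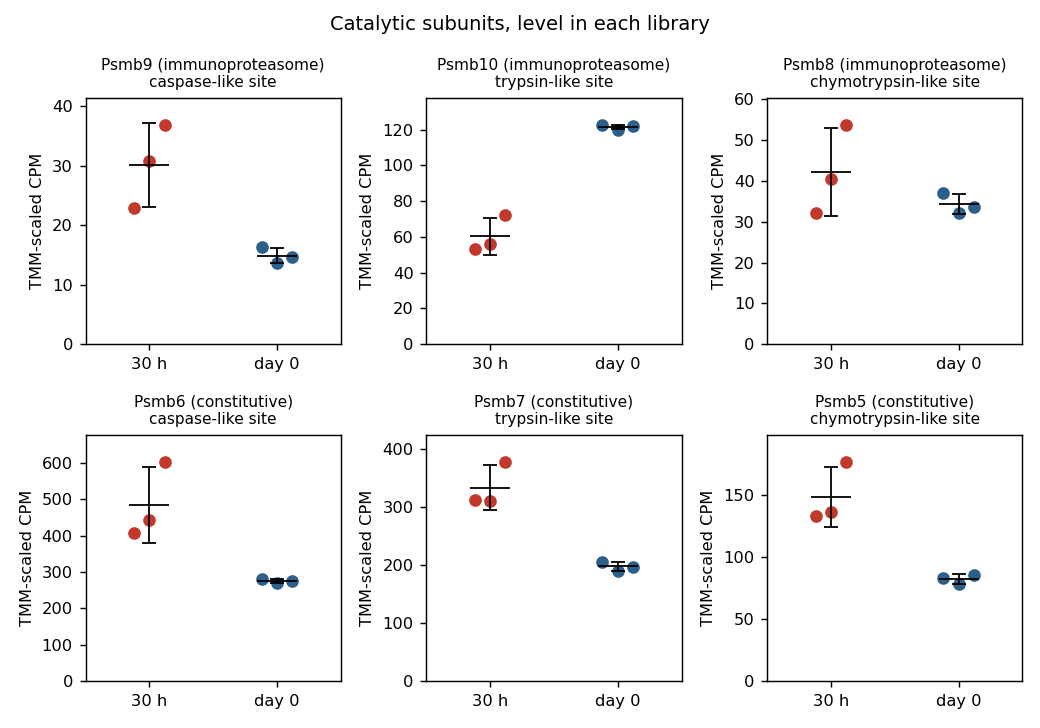
Level in TMM-scaled CPM of the 3 immunoproteasome genes (upper row) and of the constitutive gene for the same catalytic site (lower row); dots are libraries, 30 h left and day 0 right, long horizontal lines are means and error bars SD (n = 3), and each y axis starts at 0. Psmb10 is lower in all 3 libraries at 30 h, while Psmb9 and the 3 constitutive genes are higher.

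The ratio of each immunoproteasome gene to its constitutive counterpart within a library does not depend on scaling, but it can depend on GC content, which was 58.3% in Psmb10 and 43.1% in Psmb7. The log2 ratio of Psmb10 to Psmb7, in counts per kilobase of annotated exon, was -1.55, -1.47 and -1.39 in the 30 h libraries and 0.26, 0.34 and 0.31 in the day 0 libraries. That is a difference of -1.77 with groups far apart (two-sided exact permutation test, p = 0.1, adjusted over the 3 pairs 0.15; 0.1 is the smallest p that 3 against 3 libraries can give). For Psmb8 to Psmb5 it was -3.96, -3.66 and -3.63 at 30 h and -3.08, -3.19 and -3.25 at day 0, a difference of -0.58 with no overlap (exact p = 0.1, adjusted 0.15). For Psmb9 to Psmb6 it was -5.12, -4.81 and -5.00 at 30 h and -5.07, -5.26 and -5.20 at day 0, where the groups overlapped (difference 0.20, exact p = 0.2). The 2 transcripts of the trypsin-like site thus had changes of opposite sign, while Psmb9 and Psmb6 both rose. The height of a ratio depends on the length used: with principal transcripts the mean log2 ratio of Psmb10 to Psmb7 was -2.65 at 30 h and -0.88 at day 0, with the same difference of -1.77. With each library's GC trend removed, the difference was -0.85 for Psmb10 to Psmb7, -0.78 for Psmb8 to Psmb5 and 0.27 for Psmb9 to Psmb6, so the directions were the same and that of the trypsin-like site was smaller.

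**Figure D3:**
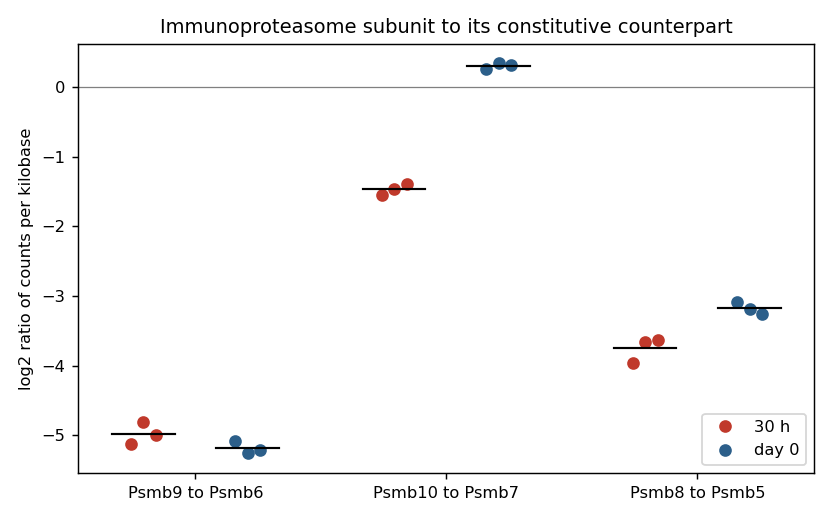
Log2 ratio of each immunoproteasome gene to the constitutive gene of the same catalytic site, in counts per kilobase of annotated exon; dots are libraries (30 h left, day 0 right in each pair) and lines are means. The 30 h libraries lie below the day 0 libraries for Psmb10 to Psmb7 and for Psmb8 to Psmb5, and overlap with them for Psmb9 to Psmb6.

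Markers of other blood cells, where immunoproteasome is common, were also set side by side. Of all genes tested, 34.4% were higher at 30 h and 40.1% lower, so calls in both directions within a list are common. Every list of markers of these other blood cells but the lymphoid one held both. Pan-leukocyte markers summed to 975 to 1060 CPM at 30 h and 1123 to 1152 CPM at day 0, with 4 of 7 higher and 3 lower. Neutrophil and monocyte markers summed to 4775 to 7319 CPM at 30 h and 3556 to 3697 CPM at day 0 (5 of 10 higher, 2 lower), and macrophage markers to 262 to 388 CPM at 30 h and 182 to 202 CPM at day 0 (4 of 10 tested higher, 3 lower; Cd163 at 0 at 30 h). Dendritic cell markers summed to 116 to 139 CPM at 30 h and 51.3 to 55.0 CPM at day 0 (3 of 6 tested higher, 1 lower). Lymphoid markers summed to 15.6 to 19.4 CPM at 30 h and 27.4 to 28.7 CPM at day 0 (0 of 6 tested higher, 3 lower; Cd3e at 0 at 30 h). Mast cell and basophil markers summed to 37.0 to 40.3 CPM at 30 h and 51.8 to 54.9 CPM at day 0 (2 of 5 tested higher, 2 lower), and megakaryocyte markers to 563 to 961 CPM at 30 h and 540 to 638 CPM at day 0 (1 of 7 higher, 3 lower). Endothelial and mesenchymal markers were lower at 30 h in all 7 genes of each list. Endothelial markers summed to 30.4 to 38.4 CPM at 30 h and 172 to 199 CPM at day 0, and mesenchymal markers to 18.9 to 41.3 CPM at 30 h and 1499 to 1918 CPM at day 0. The part of these cells in the immunoproteasome values was not tested.

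The base of the regulatory particle had smaller changes by its median. Of its 9 genes with a Psm symbol, 6 were higher, 0 lower and 3 not called (median log2 0.27). Library totals only gave 3 higher and 4 lower (median -0.22). The shares over all genes were 34.4% higher and 40.1% lower, and 22.3% and 54.4% with library totals only. Psmc6, an ATPase of the unfolding ring, was the exception in size. It stood at 492, 485 and 610 CPM at 30 h and 201, 193 and 202 CPM at day 0, 2.66-fold higher (log2 1.41 ± 0.12 SE, edgeR adjusted p = 1.93e-05), and the groups were far apart. The other ATPase genes of the same ring were Psmc3 with a log2 change of 0.72, Psmc4 with 0.34, Psmc2 with 0.27, Psmc1 with 0.23 and Psmc5 with 0.15, the last not past the threshold (adjusted p = 0.153). Psmc3 was also called higher with library totals only (log2 0.23), but Psmc4, Psmc2, Psmc1 and Psmc5 were then -0.15, -0.22, -0.26 and -0.34, and Psmc1 and Psmc5 were called lower. Psmc1 and Psmc2 also lost their call when 30 h replicate 2 or any 1 day 0 library was left out (adjusted p between 0.0736 and 0.159), and Psmc5 gained one without 30 h replicate 3 (adjusted p = 0.0356). With the GC trend removed Psmc2 was not called (log2 0.09, adjusted p = 0.397) and Psmc5 was called higher (log2 0.36, adjusted p = 0.0123). Psmd4, a receptor for ubiquitin chains, rose 1.76-fold (log2 0.82 ± 0.09 SE, adjusted p = 6.10e-05). The scaffold genes Psmd1 and Psmd2 did not pass the threshold (log2 -0.04 and -0.05), and both were called lower with library totals only (log2 -0.53 and -0.54).

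In the lid, 6 of 8 genes with a Psm symbol were higher, 1 was lower and 1 was not called (median log2 0.56). With library totals only, 3 were higher and 2 lower (median 0.07). All genes tested gave 34.4% higher and 40.1% lower, and 22.3% and 54.4% with library totals only. Among these 8 lid genes Psmd13, a scaffold subunit, rose most, with 490, 491 and 589 CPM at 30 h and 271, 241 and 266 CPM at day 0 (2.02-fold, log2 1.01 ± 0.11 SE, edgeR adjusted p = 8.63e-05). The lid subunit gene Sem1, which has another symbol, rose more (2.77-fold). Psmd11, another scaffold subunit, stood at 238, 223.5 and 239 CPM at 30 h and 111, 117 and 122 CPM at day 0 (2.00-fold), and Psmd14, the enzyme that removes ubiquitin chains from substrates, was 1.91-fold higher. In Psmd13, Psmd11 and Psmd14 the groups did not overlap. Psmd3, also a lid scaffold subunit, was the lid gene that fell. It stood at 301, 266 and 210 CPM at 30 h and 384, 407 and 390 CPM at day 0, 1.52-fold lower (log2 -0.60 ± 0.14 SE, adjusted p = 0.00432). All 30 h libraries were lower, replicate 3 the lowest, and the log2 change was -0.47 without it. With the GC trend removed Psmd3 did not pass the threshold (log2 -0.13, adjusted p = 0.340). Psmd7 was not called (log2 -0.10, adjusted p = 0.376), and was called lower without 30 h replicate 3 (log2 -0.17, adjusted p = 0.0121) and with library totals only (log2 -0.59).

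Among the activators, which open the barrel in place of the regulatory particle, 4 of 5 genes were higher and none lower (median log2 0.64). With library totals only, 1 was higher. These counts stand beside 34.4% higher and 40.1% lower over all genes, and 22.3% and 54.4% with library totals only. Psme1 and Psme2 encode the partners of one activator ring and lie 5911 bases apart on chromosome 14. Psme2 stood at 64.2, 65.7 and 91.1 CPM at 30 h and 38.2, 33.6 and 37.7 CPM at day 0 (2.02-fold, log2 1.01 ± 0.15 SE, edgeR adjusted p = 0.000480). Psme1 stood at 171, 175 and 192.5 CPM at 30 h and 146, 141 and 136 CPM at day 0 (1.27-fold, log2 0.35 ± 0.09 SE, adjusted p = 0.00985). Both had groups apart, but Psme1 was -0.14 and not called with library totals only, and its adjusted p was 0.0514 and 0.0647 without day 0 replicate 2 or 3.

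Psme4, a nuclear activator, stood at 264.5, 214 and 151 CPM at 30 h and 131, 130 and 145 CPM at day 0 (1.55-fold, log2 0.64 ± 0.19 SE, edgeR adjusted p = 0.0157). Its 30 h libraries lay above those of day 0, replicate 3 by little, and it was not called without day 0 replicate 1 or 2 (adjusted p = 0.0578 and 0.0635). Its log2 change was 0.28 after the GC correction (adjusted p = 0.194) and with library totals only 0.15 (adjusted p = 0.509), neither called. The other nuclear activator gene, Psme3, stood at 563, 486 and 396 CPM at 30 h and 437.5, 423 and 434 CPM at day 0, with overlap (log2 0.16, adjusted p = 0.306). Leaving out 30 h replicate 3 made its log2 change 0.29 with adjusted p = 0.00235. Psme2b, an intronless copy of Psme2, had 1.87, 2.62 and 3.96 CPM at 30 h and 1.41, 1.47 and 1.61 CPM at day 0 (log2 0.89 ± 0.28 SE, adjusted p = 0.0198). Of its sequence windows of 50 bases, 69.3% also occur in another gene, so reads of Psme2 may have been assigned to it, and it was not called without 30 h replicate 3 (adjusted p = 0.0578), without day 0 replicate 1 or 2 (0.0675 and 0.0641) or with library totals only (0.212). Psmf1, which encodes an inhibitor of the isolated core, stood at 102, 85.6 and 61.2 CPM at 30 h and 58.5, 61.6 and 60.6 CPM at day 0. It was called higher (log2 0.46 ± 0.17 SE, adjusted p = 0.0412) although the groups overlapped through 30 h replicate 3. Its adjusted p was 0.104 to 0.122 when 30 h replicate 2 or any 1 day 0 library was left out, and with library totals only its log2 change was -0.026 (adjusted p = 0.905).

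The assembly chaperones held both the largest rise and one of the falls. Psmd10, a chaperone of the base also known as gankyrin (chromosome X, 140948429 to 140956728, mm10), stood at 209, 212.5 and 292 CPM at 30 h and 52.9, 50.1 and 56.8 CPM at day 0, 4.46-fold higher (log2 2.16 ± 0.15 SE, edgeR adjusted p = 8.94e-06). It had the largest log2 change of the 49 genes, with every 30 h library far above every day 0 library. It stayed past the threshold in every alternative tried, with log2 changes from 1.66 to 2.31. Psmd9, another base chaperone, rose 2.10-fold (log2 1.07 ± 0.11 SE, adjusted p = 7.11e-05). Psmd5, the remaining base chaperone, was not called (log2 0.22, adjusted p = 0.129), and was called without 30 h replicate 3 (log2 0.32, adjusted p = 0.00103) and with DESeq2 size factors (log2 0.27, adjusted p = 0.0479).

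Psmg1, a chaperone that starts the alpha ring, stood at 51.0, 56.6 and 65.9 CPM at 30 h and 119, 109 and 110 CPM at day 0, 1.95-fold lower (log2 -0.96 ± 0.12 SE, edgeR adjusted p = 0.000154). The groups were far apart, and it stayed lower and past the threshold in every alternative tried. Psmg2, its partner in the same heterodimer, had equal means, 69.9 ± 5.12 CPM at 30 h and 69.8 ± 2.57 CPM at day 0 (SD, n = 3 each; log2 0.0009 ± 0.10 SE, adjusted p = 0.994). Psmg3 and Psmg4 form the second heterodimer: Psmg4 rose 1.67-fold (log2 0.74, adjusted p = 0.00870), and Psmg3 did not pass the threshold (log2 0.07, adjusted p = 0.579). With library totals only, Psmg2 and Psmg3 were called lower (log2 -0.49 and -0.42) and Psmg4 was not called.

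The classes were also set against the core. Their median log2 change minus that of the 14 constitutive core genes was -0.12 for the activators, -0.19 for the lid, -0.46 for the immunoproteasome genes, -0.49 for the base and -0.53 for the chaperones, with no test of these differences. A comparison of levels within each library gave other sizes, since the gene at the median can differ between libraries. The median log2 level of the base genes minus that of the 14 constitutive core genes was 0.07, -0.06 and -0.57 in 30 h replicates 1, 2 and 3 and 0.27, 0.31 and 0.25 in the day 0 libraries, a difference of -0.47. The lid differed by -0.54, the activators by -0.55, the immunoproteasome genes by -0.61 and the chaperones by -0.88. In each of these 5 classes every 30 h library lay below every day 0 library. With TMM the median log2 change was 0.75 in the 14 core genes and -0.09 in all genes tested. A fall relative to the core is thus not particular to these classes. Without 30 h replicate 3 the differences were -0.27 for the base, -0.44 for the lid, -0.36 for the activators, -0.67 for the immunoproteasome genes and -0.81 for the chaperones. The size of the gap for the lid, the activators and the chaperones thus depended on the measure. The core held 0.419%, 0.443% and 0.550% of counts in the 30 h libraries and 0.368%, 0.341% and 0.371% in the day 0 libraries, without overlap, whereas the shares of the base, lid, activators and chaperones overlapped between the groups. With globin genes left out of the total, the shares of the base (0.334% at 30 h and 0.308% at day 0, means), the lid (0.252% at 30 h and 0.235% at day 0) and the chaperones (0.0764% at 30 h and 0.0649% at day 0) were also higher in every 30 h library than in any day 0 library, and those of the activators overlapped.

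The departure of 30 h replicate 3 ran with transcript length. Against the mean of replicates 1 and 2, 41 of the 49 genes were higher in replicate 3 and 8 lower (median log2 0.28), where all genes with a CPM above 0 in every 30 h library divided into 7242 higher and 8215 lower (median -0.04). Of the 10 with a principal transcript over 2500 bases, 4 were higher and 6 lower (median -0.36), among them Psme4, Psmf1 and Psmd1. Of the 39 shorter ones, 37 were higher (median 0.29). Across the 49 genes, which share the 3 libraries, Pearson's r between log2 length and this difference was -0.71 and Spearman's rho -0.55. The part of transcript length in the changes of single genes was not tested. Across genes, the log2 change between the groups had r = -0.28 and rho = -0.18 with GC content in the 49, and -0.17 and -0.20 over all genes.

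**Figure D4:**
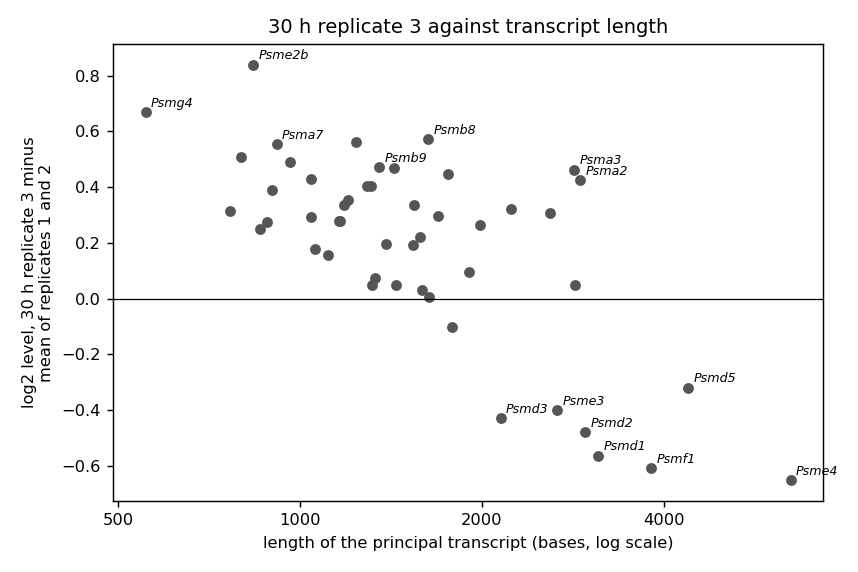
Log2 difference of 30 h replicate 3 from the mean of 30 h replicates 1 and 2 (TMM-scaled CPM) against principal transcript length in bases on a log axis, 1 point for each of the 49 tested genes. Most genes of up to 2500 bases lie above 0, and 6 of the 10 longer ones lie below.

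Several of these genes have close copies or overlapping neighbours, which limits their counts. More than 10% of the 50-base windows of 12 genes also occur in another gene: after Psme2b, the share was highest in Psmb5 (54.1%) and Psma5, then 28.3% in Psme2 and 24.9% in Psmd9, and Psmb8 had 11.9%. Exons of Psmb7 overlap those of Nek6 on the opposite strand over 405 bases (11.8% of its exon length). Nek6 had 1423 counts at 30 h and 5198 at day 0, summed over the libraries of each group and not scaled. The unscaled counts of Psmb7 were also lower at 30 h (6342, 5211 and 6011, against 7286, 6604 and 6515 at day 0), where library totals were smaller. Psmb9 shares 212 bases with Tap1 and Psmd13 shares 342 with Sirt3, both on the opposite strand. No source used here says whether reads were counted by strand, so reads in these stretches may not be separated.

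Genes that work with the proteasome under other symbols showed a mixed picture. Of 15 components and partners, 7 (46.7%) were higher and 3 (20%) lower, against 34.4% and 40.1% of all genes. Among genes with a mean of at least 30 CPM the shares were 44.3% and 28.9%, near those of this list. With library totals only 4 were higher and 7 lower, against 22.3% and 54.4% of all genes. Those that rose included Sem1, the smallest lid subunit (2.77-fold), Pomp, the maturation protein of the core (1.77-fold; not called with library totals only), and Zfand5, a proteasome activator (2.82-fold). The largest fall was in Ubqln4, which carries ubiquitinated proteins to the proteasome, with 68.2, 67.8 and 46.0 CPM at 30 h and 149, 159 and 153 CPM at day 0 (2.53-fold lower).

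Genes that control proteasome transcription gave 4 higher (44.4%) and 2 lower (22.2%) of 9, against 34.4% and 40.1% of all genes. Among genes with a mean of at least 30 CPM the shares were 44.3% and 28.9%, near those of this list. With library totals only 4 were higher and 4 lower, against 22.3% and 54.4% of all genes. Nfe2l1, which encodes NRF1, the factor that raises proteasome genes when activity falls short, had 123, 110 and 69.6 CPM at 30 h and 97.0, 102 and 93.8 CPM at day 0, with overlap (log2 0.05, edgeR adjusted p = 0.827). Without 30 h replicate 3 it was called higher (log2 0.26, adjusted p = 0.00424). Mafg, a small Maf partner of such factors, rose most (4.62-fold; 251, 228 and 188 CPM at 30 h and 48.0, 47.9 and 48.3 CPM at day 0). Vcp, an ATPase that extracts ubiquitinated proteins from membranes and complexes, fell most, by 1.91-fold.

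Class I presentation genes, which handle the peptides that proteasomes make, gave 6 higher and 4 lower of 12 (5 and 5 with library totals only). The first 2 counts are 50% and 33.3%, against 34.4% and 40.1% of all genes (22.3% and 54.4% with library totals only). Among genes with a mean of at least 30 CPM the shares were 44.3% and 28.9%. B2m, the light chain of class I molecules, stood at 637, 625 and 707 CPM at 30 h and 189.5, 196 and 191 CPM at day 0 (3.41-fold). Nlrc5, an activator of class I genes, rose most (8.66-fold) at a low level, 1.51 to 2.98 CPM at 30 h and 0.173 to 0.334 CPM at day 0, and Erap1, a peptide-trimming enzyme, fell most (1.94-fold). Tap1, the neighbour of Psmb9, rose 1.43-fold (log2 0.52), and its partner Tap2 fell 1.28-fold (log2 -0.35). Tap1 was not called with library totals only (log2 0.03, adjusted p = 0.849). The GC correction turned Tap2 to 0.25, which was not called (adjusted p = 0.0690). Interferon response factors gave 8 higher (66.7%) and 2 lower (16.7%) of 12 (7 and 3 with library totals only). Irf7, a regulator of interferon genes, stood at 226, 184 and 171 CPM at 30 h and 4.52, 3.86 and 3.34 CPM at day 0 (49.4-fold higher). Irf1, an activator of immunoproteasome genes, was 1.89-fold higher, and Irf8, a factor of the myeloid lineage, was 2.15-fold lower.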

How the data were processed

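RNA-seq libraries of 2 groups were analysed, 3 at 30 h and 3 at day 0, grouped and numbered by the labels. The values are whole-number read counts per gene deposited by the authors, 1 file per library, made with cutadapt 1.13, STAR and HTSeq 0.6.1p1 on build mm10, per the submitters' processing notes, which also name DESeq2. Total RNA was taken, per the labels' protocols. Settings and strand use are not given in the sources used here. The proteasome genes and all gene lists were chosen with earlier results of these data known.

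Gene IDs were matched to GENCODE M21 (54165 of 54232 found, 67 not, holding at most 0.0047% of a library). Genes kept by edgeR's filterByExpr (16150) were tested with the quasi-likelihood test with robust fitting and TMM scaling (factors 0.82 to 0.88 at 30 h and 1.18 at day 0; edgeR 4.0.16, R 4.3.3). Benjamini-Hochberg adjustment ran over all genes tested, with a threshold of 0.05. Levels are TMM-scaled CPM computed here. SEs come from the F statistic. Biological coefficients of variation were 20.5% within 30 h and 5.28% within day 0, so the 30 h libraries set the precision. Steps were tested on simulated data. Replicates differed by more than sampling noise, so none was counted as a copy.

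Named in full are the catalytic genes, the activators, the largest called rise and fall of each class and each gene called against most of its class, and from each pathway list the largest rise and fall. Sem1, Pomp, Zfand5, Nfe2l1, B2m, Tap1, Tap2 and Irf1 were named after their values were seen. A gene falling under this rule is not reported here. Ratios between genes were compared by exact permutation tests (scipy 1.17.1). There were 16 alternatives: 4 scalings (size factors of DESeq2, totals without factors, upper quartile, and scaling without globin genes), 2 filters, the DESeq2 1.42.0 test, limma voom (limma 3.58.1) with a weight per group, a block for replicate number, the omission of each library in turn, and a correction for each library's trend of log2 CPM with GC content. The last was chosen after seeing the data. The level per principal transcript and the GC correction of the ratios were chosen after seeing the data too.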

Additional observations from a re-analysis of the deposited data

How the results depend on the processing

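Of the 39 proteasome genes called, 18 kept their call and direction in all 16 alternatives. Library totals only changed most: 16 of the tested proteasome genes were then higher and 12 lower, and 3601 of all genes were higher. The median log2 change of the proteasome genes, 0.64 with TMM, was 0.71 with DESeq2 size factors, 0.15 with library totals only, 0.53 with upper-quartile factors, 0.55 with all genes kept, 0.61 with the GC trend removed and 0.54 to 0.78 with 1 library left out. With the GC trend removed 2 genes were lower. Leaving out 1 library gave 26 to 37 genes higher and 4 to 5 lower. The difference in the share of counts held by the genes was 0.079 percentage points (0.044 to 0.104 with 1 library left out), and 0.215 with globin genes left out of the total.

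With library totals only the direction turned for the medians of the base (-0.22), chaperones (-0.27) and immunoproteasome genes (-0.20), and for Psme1 (-0.14), Psme3 (-0.33), Psmc1 (-0.26), Psmc2 (-0.22), Psmc4 (-0.15), Psmc5 (-0.34), Psmd5 (-0.27), Psmg2 (-0.49), Psmg3 (-0.42), Psma4 (-0.30), Psmb2 (-0.15), Psmb8 (-0.20), Psmf1 (-0.026), Psmd12 (-0.086) and Psmd6 (-0.21). All values are log2 changes, 30 h over day 0, and the shift of all of them together is the construction of that scaling. With 1 library left out it turned within a range of -0.12 to 0.12 for Psmd1, -0.11 to 0.097 for Psmd2, -0.056 to 0.085 for Psmg2, -0.020 to 0.21 for Psmg3 and -0.17 to 0.0003 for Psmd7. With the GC trend removed it turned for Psmd2 (0.12), Psmd7 (0.17) and Psmg2 (-0.067). Psmg2, at 0.0009, also turned with upper-quartile scaling (-0.13), globin genes left out (-0.0035), no filter (-0.089), the DESeq2 test (-0.013), voom (-0.0015), and the replicate block (-0.0008). Psmg3 turned with upper-quartile scaling (-0.052) and no filter (-0.015). Apart from the scaling, the cause was not tested.

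Deviations of same-numbered libraries from their group means correlated at -0.11, 0.10 and -0.03, and not every library correlated best with its own number. With 3 libraries per group these values cannot show whether the libraries were paired, and the labels do not say. With the replicate block 31 proteasome genes were higher and 4 lower, and Psmc1, Psmc2, Psmd6 and Psmf1 did not pass the threshold (adjusted p from 0.0544 to 0.0970). Low counts limit what can be said of Psma8, Psme2b and Psmb11.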
